A study of Mus musculus with 6 samples.

Results

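The granins are the genes Chga, Chgb, Scg2, Scg3 and Vgf, which encode the acidic cargo proteins of the secretory granules that also hold insulin. The 5 genes were taken from the deposited table by gene name, each matched 1 entry among 54532. All 5 were among the 13723 genes tested, which averaged at least 1 FPKM (reads scaled by gene length and library depth). RNA-seq had been done on mouse pancreatic islet RNA in 2 groups of 3 libraries, Bcas2 conditional knockout (cKO) and control. The labels give the knockout as genotype Cko and the control as wild type, and the series design text speaks of a Bcas2 knockdown. Which Cre line was used, which exons it removes, how old the mice were, their strain and any allele that controls share are not stated in the labels. BCAS2 belongs to the Prp19 complex, an activator of the spliceosome, and the series title ties it to insulin synthesis and secretion through alternative splicing.

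Granins are made in endocrine, neuroendocrine and nerve cells, enter the secretory pathway, and condense with calcium in the acid of the late Golgi, which helps to pack hormones into dense-core granules. Inside the granule the prohormone convertases cut them at pairs of basic residues into peptides, several of which act outside the cell. Chromogranin A (Chga) and secretogranin II (Scg2) are major soluble cargo, chromogranin B (Chgb) also acts in the trafficking of proinsulin in mouse beta cells, secretogranin III (Scg3) links granins to the granule membrane, and VGF is a growth factor-inducible member whose gene answers to neuronal activity.

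Bcas2 itself (ENSMUSG00000005687) held 8.76, 8.40 and 9.14 FPKM in Bcas2 cKO libraries 3, 4 and 5, against 10.3, 15.04 and 11.2 FPKM in control libraries 1, 3 and 4. Its groups did not overlap, with a log2 fold change of -0.42 (SE 0.13, limma adjusted p 0.083), which is not past the threshold of 0.05. This value covers the whole gene. The libraries held 16351800 to 16904326 reads on genes in Bcas2 cKO and 15170439 to 15594871 in control. The preparations are labelled as beta cells of islets. Beta cell transcripts were abundant, but the alpha cell hormone gene Gcg averaged 23395 FPKM in Bcas2 cKO and 19242 FPKM in control, so other endocrine cells, which also make granins, were present. The labels number the Bcas2 cKO samples 1, 3 and 4, whereas the table has columns 3, 4 and 5. The last was used by its group name alone. The labels do not tie libraries to animals, so each p-value reflects variation among 6 libraries, which may be technical.

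The promoters of 4 members are shown because the cAMP response element, TGACGTCA, to which the activity-dependent factor CREB binds, is a known feature of granin genes and because Chgb, which rose, and Scg2, whose values were lower, both hold it. The sequences are the 250 bases before the transcript start in RefSeq (GRCm38.p6), matched by symbol for 4 of the 5 genes; Vgf did not match. The deposited table starts Chgb and Scg2 farther upstream, so the Chgb window and part of the Scg2 window lie inside the gene spans given there. Capitals mark TGACGTCA and its 5-base part TGACG, searched on both strands.
Chgb (chr2:132781392-132781641, plus strand): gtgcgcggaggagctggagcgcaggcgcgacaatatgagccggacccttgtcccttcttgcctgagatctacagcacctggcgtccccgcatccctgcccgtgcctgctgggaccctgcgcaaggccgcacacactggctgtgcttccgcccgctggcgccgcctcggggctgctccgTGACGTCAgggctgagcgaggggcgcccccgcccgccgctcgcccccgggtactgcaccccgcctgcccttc
Scg2 (chr1:79440027-79440276, minus strand): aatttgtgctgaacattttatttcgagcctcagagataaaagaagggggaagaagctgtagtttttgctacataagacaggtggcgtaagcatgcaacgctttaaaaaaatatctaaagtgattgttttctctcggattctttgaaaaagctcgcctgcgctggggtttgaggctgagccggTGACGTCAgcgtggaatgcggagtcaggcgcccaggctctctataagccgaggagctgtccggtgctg
Chga (chr12:102554691-102554940, plus strand): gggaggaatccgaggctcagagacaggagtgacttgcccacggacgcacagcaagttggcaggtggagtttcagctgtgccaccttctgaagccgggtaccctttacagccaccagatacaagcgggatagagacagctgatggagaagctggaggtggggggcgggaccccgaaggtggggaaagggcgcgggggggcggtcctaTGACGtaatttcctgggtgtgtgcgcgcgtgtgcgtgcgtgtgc
Scg3 (chr9:75684057-75684306, minus strand): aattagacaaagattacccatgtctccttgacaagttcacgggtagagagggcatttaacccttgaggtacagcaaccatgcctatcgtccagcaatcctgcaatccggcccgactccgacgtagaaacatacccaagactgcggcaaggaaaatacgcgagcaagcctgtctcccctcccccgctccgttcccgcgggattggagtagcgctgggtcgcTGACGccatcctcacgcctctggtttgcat

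The full element lay 72 to 65 bases before the start in Chgb and 68 to 61 bases before it in Scg2. Chga had TGACG without the exact rest at 44 to 40 bases and Scg3 at 30 to 26 bases before the start. Read on, these stretches are TGACGTAA in Chga and TGACGCCA in Scg3, and each differs from the full element in a single base. The full element was found in 1.55% of 32851 promoter windows of the same length, and TGACG, which it contains, in 17.8%. The TATA box core TATAAA, on either strand, was in none of the 4 windows and in 12.4% of all. Only these exact letters were searched, and the Scg2 window holds TATAAG, which differs in the last base. Of 292 tested genes with TGACGTCA in that window, 7.88% rose and 7.53% fell, while 6.23% rose and 7.96% fell of the 9035 tested protein-coding genes with a promoter sequence. A match describes the letters only, and binding was not measured.

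The gene models differ widely in the number of introns (GENCODE M21, GRCm38, with the same start and end as in the deposited table for all 5). Chga (ENSMUSG00000021194, chromosome 12, 102554969 to 102565028, plus strand) has 8 exons in its principal transcript, Chgb (ENSMUSG00000027350, chromosome 2, 132781278 to 132795079, plus strand) has 5, and Scg3 (ENSMUSG00000032181, chromosome 9, 75643189 to 75684056, minus strand) has 12. Scg2 (ENSMUSG00000050711, chromosome 1, 79434669 to 79440120, minus strand) has 2 exons and Vgf (ENSMUSG00000037428, chromosome 5, 137026392 to 137033351, plus strand) has 5, and in both the whole protein is coded in 1 exon. Of the members with a single coding exon, Vgf rose and Scg2 had lower values that did not pass the test. Of those with several, Chgb rose, and Chga and Scg3 did not pass it. Among tested protein-coding genes with 1 to 3 exons 7.78% rose and 11% fell, and with 4 to 6 exons 5.95% rose and 6.85% fell. With 7 to 10 exons 6.33% rose and 8.47% fell, and with 11 or more 6.84% rose and 7.62% fell. Whether exon number plays a part was not tested. The deposited values are gene totals, so splicing of the members was not measured. Only 1 listed gene overlapped a member, Gm37871, on the strand opposite Scg3, with 12 to 27 reads in Bcas2 cKO libraries and 9 to 15 in control libraries.

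In Bcas2 cKO, Vgf and Chgb rose (Chgb not under quantile normalization), Scg2 and Chga had lower values that did not pass the test, and the values of Scg3 overlapped. Of the 5 members 2 rose, where 6.97% of all tested genes did, and 0 fell, where 7.55% of all did (limma with trend on log2(FPKM + 1), Benjamini-Hochberg adjusted p under 0.05). At an unadjusted p under 0.05 1 member, Scg2, was lower, limma voom on the reads recovered from the FPKM called 2 rises and 1 fall, Scg2, where 12.6% of all genes rose and 4.04% fell, and voom with trimmed-mean (TMM) scaling called 2 rises and 2 falls, Scg2 and Chga, where 8.37% rose and 10.2% fell. Counts at an unadjusted p under 0.05, here and for the lists below, are given without the share of all tested genes past it. They cannot be set against a background. In 4 of the 5 genes the groups did not overlap, 2 with higher and 2 with lower values in Bcas2 cKO. Of all tested genes 38.0% had no overlap, 16.8% with all Bcas2 cKO values higher and 21.1% with all lower. The 2-sided exact permutation test gave p = 0.1 for these 4 genes, the smallest that 3 against 3 libraries allow, and 0.2 for Scg3.

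**Figure D1:**
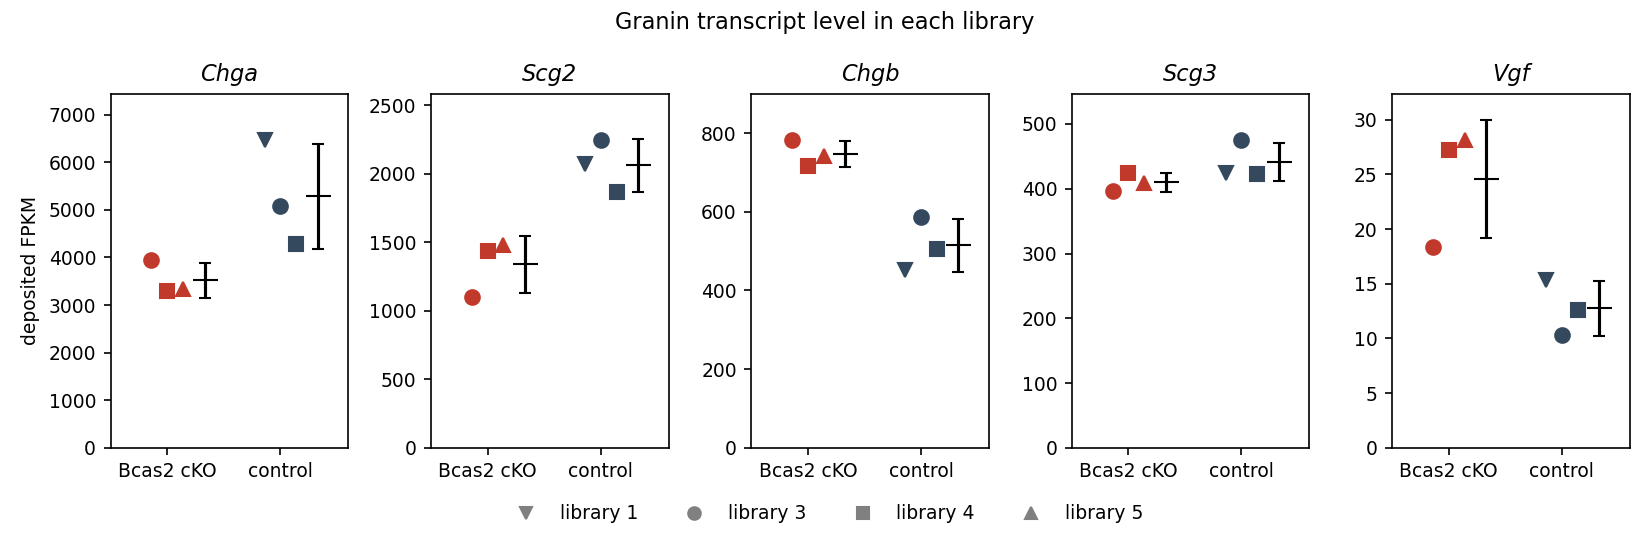
Deposited FPKM of each granin gene (y axis, from 0, a scale of its own in each panel) in the 3 Bcas2 cKO libraries (red, left) and the 3 control libraries (dark blue, right); marker shapes give the library number, and the bar at the right of each group is the mean ± SD. Chgb and Vgf lie higher and Chga and Scg2 lower in every Bcas2 cKO library than in any control library, and Scg3 overlaps; under quantile normalization Chgb turns lower.

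Vgf, the least abundant member, rose the most. Bcas2 cKO libraries 3, 4 and 5 held 18.4, 27.2 and 28.2 FPKM, against 15.4, 10.3 and 12.6 FPKM in control libraries 1, 3 and 4. Libraries 4 and 5 of Bcas2 cKO were high, and library 3 of Bcas2 cKO stood close to control library 1. The means were 24.6 ± 5.41 FPKM in Bcas2 cKO and 12.8 ± 2.51 FPKM in control (SD, n = 3 each), a ratio of 1.93. The log2 fold change was 0.89 (SE 0.20, 95% interval 0.42 to 1.35, limma adjusted p 0.029). The values rest on 990 to 1444 reads in Bcas2 cKO and 415 to 724 in control, a counting error of 2.63 to 4.91% per library, well under the SD. The call was lost without Bcas2 cKO library 4 (log2 fold change 0.80, adjusted p 0.092), Bcas2 cKO library 5 (0.78, 0.088), control library 3 (0.76, 0.076) or control library 4 (0.89, 0.085), and when all genes with a mean above 0 entered the fit (0.89, 0.081).

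Chgb was the abundant member that rose. Its 3 Bcas2 cKO values were 783, 716 and 741 FPKM in libraries 3, 4 and 5, and its 3 control values 451, 586 and 506 FPKM in libraries 1, 3 and 4. The Bcas2 cKO libraries lay close together and all above the highest control, library 3. The mean was 747 ± 33.8 FPKM in Bcas2 cKO and 515 ± 67.8 FPKM in control (SD, n = 3 each), a ratio of 1.45. The log2 fold change of 0.54 (SE 0.14, 95% interval 0.21 to 0.87) passed the test narrowly, at a limma adjusted p of 0.045, and turned to -0.13 (adjusted p 0.64) under quantile normalization, which keeps ranks in place of levels. Chgb ranked 29, 35 and 43 among protein-coding genes in Bcas2 cKO libraries 3, 4 and 5, against 34, 29 and 29 in control libraries 1, 3 and 4, so its rank was not higher although its FPKM was. Its call was lost without Bcas2 cKO libraries 3, 4 or 5 (adjusted p 0.14, 0.11 and 0.11) and without control libraries 1 or 4 (0.076 and 0.13), with log2 fold changes of 0.45 to 0.57, and held without control library 3 (0.64, 0.035). With all genes of mean above 0 in the fit the adjusted p was 0.22.

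Scg2, whose product is cut to the peptide secretoneurin, was lower in Bcas2 cKO. Libraries 3, 4 and 5 of Bcas2 cKO held 1101, 1434 and 1479 FPKM and libraries 1, 3 and 4 of control held 2069, 2248 and 1864 FPKM. Library 3 of Bcas2 cKO was the lowest, and a gap separated the groups. Scg2 averaged 1338 ± 207 FPKM in Bcas2 cKO and 2060.4 ± 192 FPKM in control (SD, n = 3 each), a ratio of 0.649. The log2 fold change was -0.63 (SE 0.19, 95% interval -1.07 to -0.19, limma adjusted p 0.065) and did not pass the threshold. It passed over genes of at least 5 FPKM (0.044), without the trend in the variance (0.034), with quantile normalization (0.0098) and with voom, without or with TMM scaling (0.025 and 0.013).

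Chga, the most abundant granin transcript, was also lower but varied more among controls. In Bcas2 cKO libraries 3, 4 and 5 its level was 3947, 3296 and 3329 FPKM, compared with 6473, 5087 and 4284 FPKM in control libraries 1, 3 and 4. Control library 1 was far above the other libraries, while control library 4 lay near Bcas2 cKO library 3. Chga averaged 3524 ± 367 FPKM in Bcas2 cKO and 5281 ± 1107 FPKM in control (SD, n = 3 each), a ratio of 0.667. The log2 fold change of -0.57 (SE 0.24, 95% interval -1.14 to 0.003) did not pass the test (limma adjusted p 0.16). Voom with TMM scaling called it (-0.57, adjusted p 0.036), whereas voom on the recovered totals did not (-0.42, 0.14). Without control library 1 the log2 fold change was -0.41 (adjusted p 0.25).

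Scg3, which binds carboxypeptidase E and chromogranin A at the granule membrane, showed the least difference. It held 396, 424 and 409.5 FPKM in Bcas2 cKO libraries 3, 4 and 5, and 425, 476 and 423 FPKM in control libraries 1, 3 and 4. The groups overlapped, and only control library 3 stood apart. The means were 410 ± 14.1 FPKM in Bcas2 cKO and 441 ± 29.9 FPKM in control (SD, n = 3 each), with a log2 fold change of -0.10 (SE 0.11, limma adjusted p 0.56). The 95% interval of -0.36 to 0.16 still allows a moderate change either way. The estimate was 0.04 (adjusted p 0.83) with voom on the recovered totals, a scaling that put the median over all tested genes at 0.11 in place of -0.03, and -0.56 (0.0097) with quantile normalization.

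FPKM is per length, so levels can be ordered between genes. In Bcas2 cKO the order was Chga, Scg2, Chgb, Scg3 and Vgf, and no neighbours overlapped: the lowest Chgb value, 716 FPKM, stood above the highest Scg3 value, 424 FPKM. In control the order of the means was the same, but Chgb, at 451 to 586 FPKM, and Scg3, at 423 to 476 FPKM, overlapped. Among protein-coding genes Chga ranked 8, 9 and 12 in Bcas2 cKO libraries 3, 4 and 5 and 6, 7 and 6 in control libraries 1, 3 and 4. Scg2 ranked 18 to 24 in Bcas2 cKO and 11 to 12 in control, Scg3 50 to 58 in Bcas2 cKO and 35 to 37 in control, and Vgf 1126 to 1991 in Bcas2 cKO and 2526 to 4048 in control.

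The spread between replicates also differed by gene. Scg3 had a coefficient of variation of 3.44% in Bcas2 cKO and 6.78% in control, and Chgb 4.53% in Bcas2 cKO and 13.2% in control. The median over the 216 tested genes of 100 to 1000 FPKM was 7.90% in Bcas2 cKO and 14.4% in control. Chga, at 10.4% in Bcas2 cKO and 21.0% in control, and Scg2, at 15.5% in Bcas2 cKO and 9.34% in control, stood among 22 genes of 1000 to 10000 FPKM with medians of 14.6% in Bcas2 cKO and 20.8% in control. Vgf varied most among the 5 in Bcas2 cKO, with 22.0% there and 19.7% in control, against medians of 7.10% in Bcas2 cKO and 9.22% in control over 4111 genes of 10 to 100 FPKM.

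With higher values of Chgb and Vgf and lower values of the most abundant members, the make-up of the granin total differed between groups. The 5 genes summed to 6245, 5898 and 5987 FPKM in Bcas2 cKO libraries 3, 4 and 5, and to 9433, 8407 and 7089 FPKM in control libraries 1, 3 and 4. All Bcas2 cKO sums were below all control sums, a ratio of means of 0.727 (exact permutation p 0.1, 2-sided). Chgb made up 12.5, 12.1 and 12.4% of the sum in Bcas2 cKO libraries 3, 4 and 5, against 4.78, 6.97 and 7.14% in control libraries 1, 3 and 4. Its share was thus nearly constant in Bcas2 cKO and averaged 1.96 times the control share (exact permutation p 0.1). Scg3 made up 6.34 to 7.19% in Bcas2 cKO and 4.50 to 5.97% in control, and Vgf 0.294 to 0.470% in Bcas2 cKO and 0.123 to 0.178% in control, both without overlap. The shares of Chga, 55.6 to 63.2% in Bcas2 cKO and 60.4 to 68.6% in control, and of Scg2, 17.6 to 24.7% in Bcas2 cKO and 21.9 to 26.7% in control, overlapped. Shares of 1 total depend on each other.

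**Figure D2:**
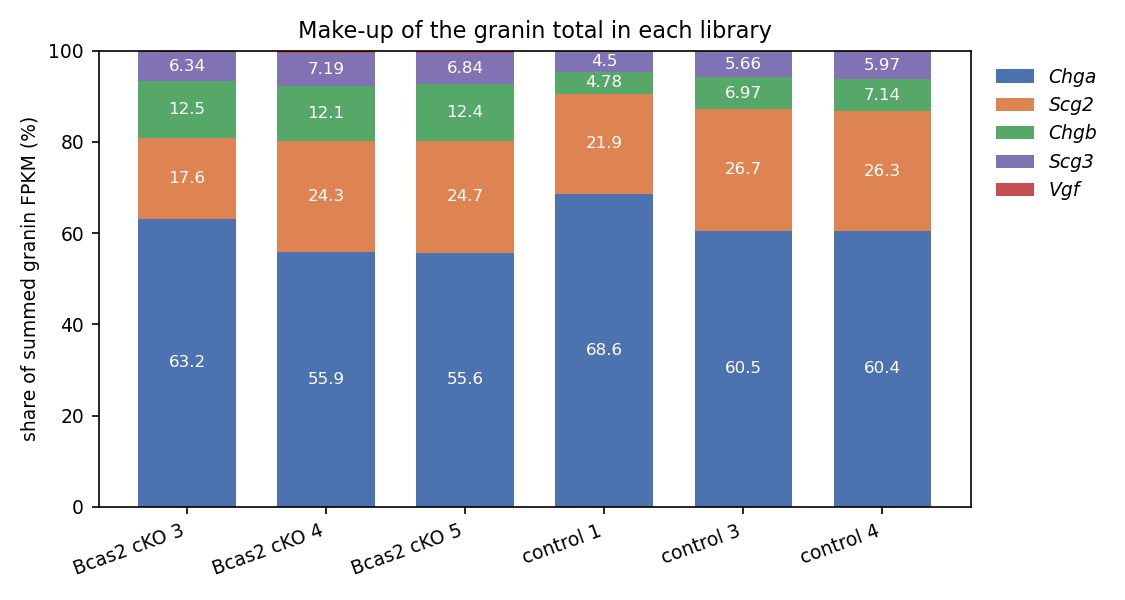
Share of each granin gene in the summed FPKM of the 5 genes (y axis, percent) in each library, Bcas2 cKO at the left and control at the right; numbers in the bars are percent, and Vgf is the thin strip at the top. Chgb holds 12.1 to 12.5% in each Bcas2 cKO library and at most 7.14% in a control library.

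As a share of all reads on genes the granins took 1.88, 1.66 and 1.65% in Bcas2 cKO libraries 3, 4 and 5 and 2.59, 2.01 and 1.84% in control libraries 1, 3 and 4, and the groups overlapped (exact permutation p 0.2). The difference of means was -0.42 percentage points, and -0.20 without control library 1. The insulin genes Ins1 and Ins2 took 13.3 to 14.6% of reads in Bcas2 cKO and 18.5 to 26.7% in control. Of the reads outside Ins1 and Ins2, granins took 1.93 to 2.17% in Bcas2 cKO and 2.38 to 3.18% in control, without overlap (exact permutation p 0.1). In these bulk preparations fewer cells of a type and less RNA per cell cannot be told apart.

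Ratios of 2 granin genes within a library do not move with a factor that scales a whole library, and 8 of the 10 ratios did not overlap between groups. The 10 ratios come from only 5 genes, of which 4 did not overlap singly, and 38.0% of all single genes did not overlap; the share for pairs of other genes was not computed. The Chga/Chgb ratio was 5.04, 4.601 and 4.49 in Bcas2 cKO libraries 3, 4 and 5, and 14.3, 8.68 and 8.46 in control libraries 1, 3 and 4. The log2 ratio differed by -1.11, so that Chga was 0.462 times as abundant relative to Chgb as in control. The Scg2/Chgb ratio was 1.41, 2.002 and 1.997 in Bcas2 cKO libraries 3, 4 and 5, against 4.59, 3.84 and 3.68 in control libraries 1, 3 and 4, a log2 difference of -1.18. Every Bcas2 cKO value of these 2 ratios lay below every control value. Chgb and Scg3, similar in level in control at a Chgb/Scg3 ratio of 1.06 to 1.23, stood at 1.69 to 1.98 in Bcas2 cKO. Relative to Vgf, Scg2 was lower by 1.57, Chga by 1.51 and Scg3 by 1.04 on the log2 scale, each without overlap. Chga and Scg2 kept about the same ratio to each other, with a geometric mean of 2.65 in Bcas2 cKO and 2.53 in control (log2 difference 0.06, exact permutation p 0.9). Chgb/Vgf also overlapped, at 26.3 to 42.7 in Bcas2 cKO and 29.4 to 56.7 in control (exact permutation p 0.3). The exact permutation p was 0.1 for each of the 8 ratios without overlap, the smallest possible, and 0.125 adjusted over the 10 ratios, so none passed 0.05.

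**Figure D3:**
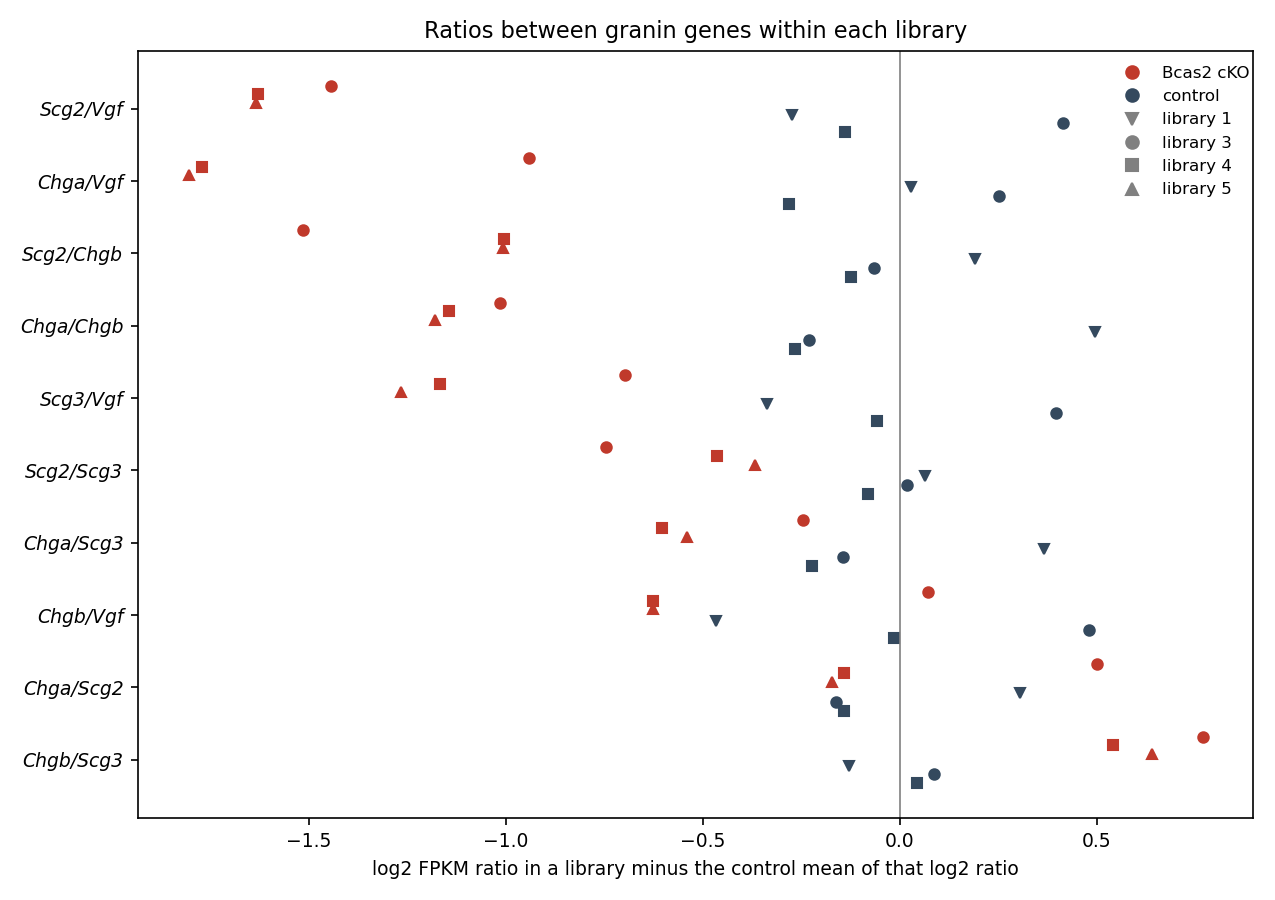
Log2 FPKM ratio of each pair of granin genes in each library, less the control mean of that log2 ratio (x axis); red markers are Bcas2 cKO and dark blue markers control, and shapes give the library number. Ratios of Scg2 or Chga to Chgb or Vgf lie left of all control values in all 3 Bcas2 cKO libraries, and Chga/Scg2 overlaps.

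The filter on low genes and the variance model (trend or robust estimation) leave a fold change as it is, so direction could change only with the pseudocount, scaling, library weights, block, voom or a left-out library. Over those settings Vgf was higher and Chga and Scg2 lower in Bcas2 cKO, Chgb was higher in all but quantile normalization, and Scg3 was lower in all but voom on the recovered totals. Whether a member passed the threshold depended on the setting for each of the 5 genes.

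**Figure D4:**
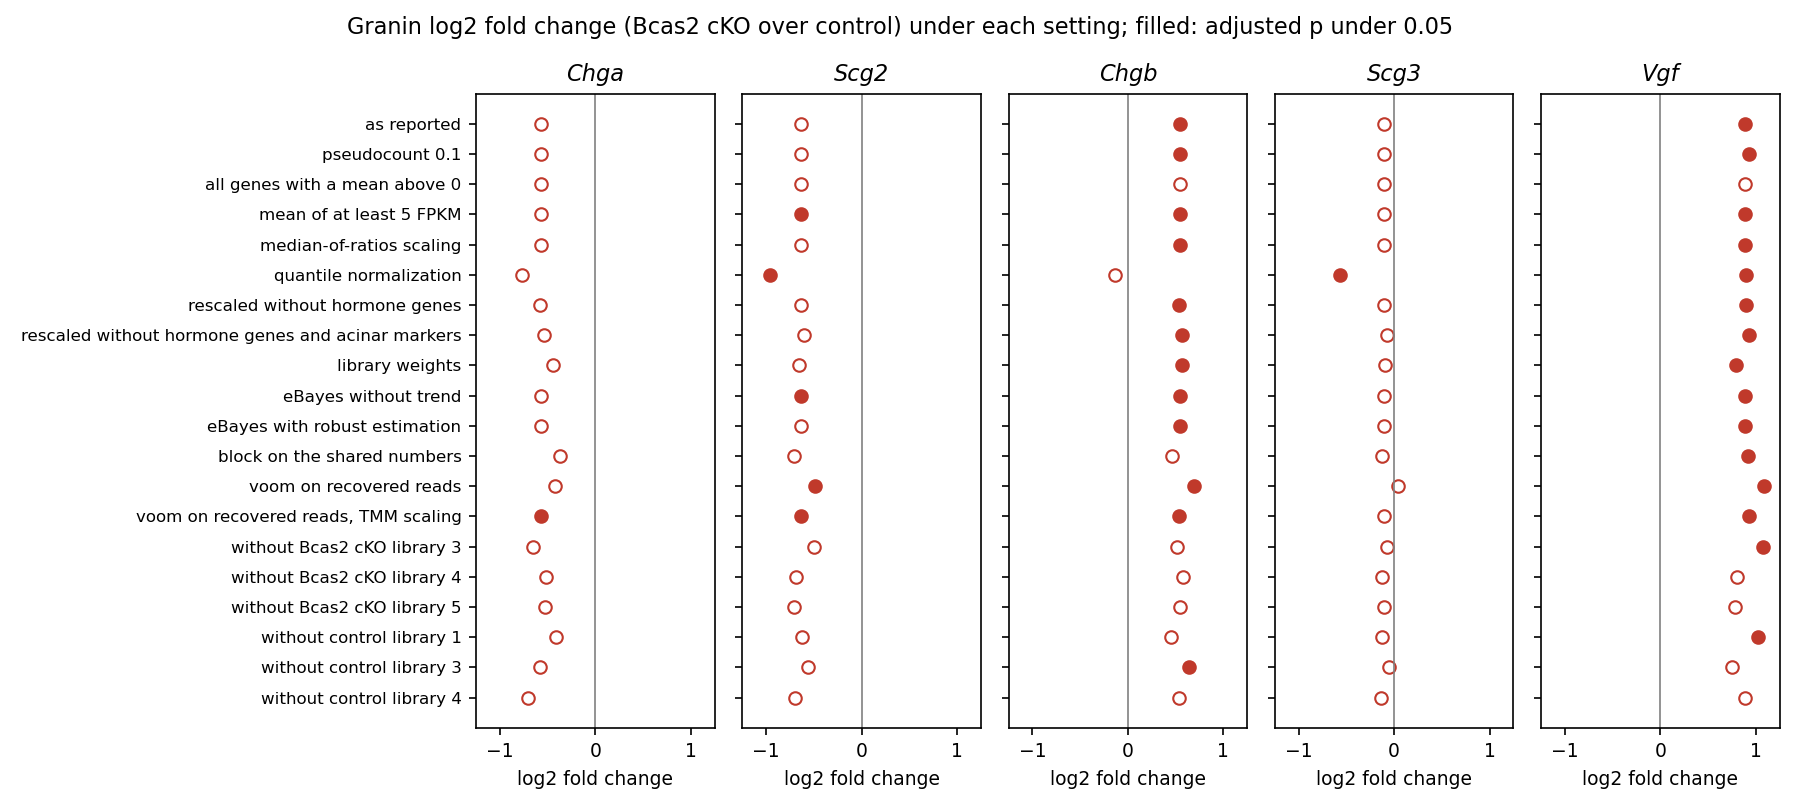
Log2 fold change of each granin gene (x axis, Bcas2 cKO over control) in the fit as reported and in each other setting (lines down the page); filled circles have an adjusted p under 0.05. Circles for Vgf lie right and those for Chga and Scg2 left of 0 in every setting, whereas Chgb crosses 0 under quantile normalization and Scg3 under voom on the recovered totals.

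The genes whose pattern over the 6 libraries was most like that of each member were taken from 4038 protein-coding genes averaging 10 FPKM or more, other than members and predicted genes, by Pearson's r of log2(FPKM + 1). These r values describe 6 points that include the difference between groups, and with so few points many genes come close to 1. For Chgb they were Gpx1, a glutathione peroxidase gene (r 0.99), Plk2, a polo-like kinase gene (0.99), and Tor1aip2 (0.99). Gpx1 averaged 94.3 FPKM in Bcas2 cKO and 46.3 FPKM in control and rose by 1.03 on the log2 scale (limma adjusted p 0.0062), and Plk2 rose by 0.62 (0.021). For Vgf they were Ppp6r1 (0.99), Usp12 (0.98) and the histone methyltransferase gene Dot1l (0.98), of which Dot1l rose, by 0.29 (0.044). For Scg2 they included Sgpp2 (0.99) and Rassf3 (0.99), of which Sgpp2 fell, by 0.62 (0.011). For Chga they were Slc22a17 (0.996), the linker histone gene H1f0 (0.98) and Pts (0.98), of which Pts fell, by 0.43 (0.029). For Scg3 they were Ift20 (0.99), Rab3ip (0.99) and Jtb (0.99), none of which passed the test.

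Scg5 and Nucb2, of the other granin-like proteins of the granule, fell in Bcas2 cKO. Of 4 tested, 2 fell and 0 rose, where 7.55% of all tested genes fell and 6.97% rose (limma; at an unadjusted p under 0.05 4 were lower and 0 higher; voom called 1 fall and 0 rises, and 3 and 0 with TMM scaling). Scg5, which encodes the chaperone 7B2 of convertase PC2, averaged 270 ± 6.86 FPKM in Bcas2 cKO and 408 ± 31.7 FPKM in control (SD, n = 3 each; log2 fold change -0.59, limma adjusted p 0.016). Nucb2, which encodes the precursor of nesfatin, averaged 33.1 ± 2.56 FPKM in Bcas2 cKO and 46.6 ± 6.71 FPKM in control (-0.47, 0.047). Leaving out a library left 0 to 1 falls in the list: Scg5 was called in 2 of 6 such fits and Nucb2 in 1. The median log2 fold change of the 4 was -0.48, beside -0.03 over all genes tested. Voom called rises in 12.6% and falls in 4.04% of all tested genes, and in 8.37% and 10.2% with TMM scaling.

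Among 11 tested genes listed as prohormone processing enzymes, 2 fell and 0 rose, where 7.55% of all tested genes fell and 6.97% rose (limma; 4 lower and 2 higher at an unadjusted p under 0.05; voom called 3 falls and 2 rises, and 3 and 1 with TMM scaling), with a median of -0.11. Whether each acts on granins was not tested. All tested genes gave 4.04% falls and 12.6% rises by voom, and 10.2% and 8.37% with TMM scaling. Pcsk2, the convertase PC2, which cuts granins as well as proinsulin, averaged 274 ± 11.9 FPKM in Bcas2 cKO and 424 ± 1.96 FPKM in control (SD, n = 3 each; log2 fold change -0.63, limma adjusted p 0.0099). Pcsk6, the convertase PACE4, averaged 3.10 ± 0.276 FPKM in Bcas2 cKO and 5.83 ± 0.644 FPKM in control (-0.73, 0.0067). Both were called in all 6 fits that left out a library. Pcsk1, named here for its role as the other granule convertase, averaged 134 ± 11.7 FPKM in Bcas2 cKO and 107 ± 9.50 FPKM in control and did not pass the test (0.32, 0.095).

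Proteins of the granule membrane were called in 1 direction. Of 16 tested, 6 fell and 0 rose, where 7.55% and 6.97% of all tested genes did (limma; 10 lower and 0 higher at an unadjusted p under 0.05; voom called 7 falls and 0 rises, also with TMM scaling), with a median of -0.26. Falls and rises made up 4.04% and 12.6% of all tested genes by voom, and 10.2% and 8.37% with TMM scaling. Slc30a8, the granule zinc transporter, averaged 364 ± 16.5 FPKM in Bcas2 cKO and 599 ± 32.1 FPKM in control (SD, n = 3 each; log2 fold change -0.72, limma adjusted p 0.0098). Sv2a, a vesicle glycoprotein gene, averaged 23.8 ± 1.85 FPKM in Bcas2 cKO and 36.4 ± 0.289 FPKM in control (-0.60, 0.0064). Ptprn2, the granule phosphatase-like protein phogrin, fell by 0.76 (0.024) and the glucose transporter gene Slc2a2, which is mainly of the plasma membrane, by 0.85 (0.0037). Of these 4, Ptprn2 was called in 3 of the 6 fits without a library and the others in all 6.

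The lists of factors that build granules or move their cargo gave no call by limma, where 6.97% of all tested genes rose and 7.55% fell. Voom called 12.6% of all tested genes as rises and 4.04% as falls, and 8.37% and 10.2% with TMM scaling. Of 24 factors of dense-core granule formation at the Golgi 0 passed the test (limma; 8 lower and 0 higher at an unadjusted p under 0.05; voom called 0, and 5 falls with TMM scaling), with a median of -0.08. Arf1, a Golgi GTPase, averaged 134 ± 6.24 FPKM in Bcas2 cKO and 151 ± 10.6 FPKM in control, and Rab2a 100.05 ± 3.09 FPKM in Bcas2 cKO and 126 ± 9.69 FPKM in control (SD, n = 3 each). Of 15 genes of cargo exit from the ER and Golgi 0 passed (limma; 4 lower and 0 higher at an unadjusted p under 0.05; voom called 0, and 1 fall with TMM scaling), with a median of 0.01. Surf4, a cargo receptor gene, averaged 110 ± 17.0 FPKM in Bcas2 cKO and 118 ± 6.97 FPKM in control, and Tmed2 77.0 ± 6.97 FPKM in Bcas2 cKO and 76.5 ± 6.16 FPKM in control (SD, n = 3 each).

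Of 16 tested peptide hormones and neuropeptides that share the granule with granins, the neuropeptide gene Npy rose by 2.83 on the log2 scale and the urocortin gene Ucn3 fell by 1.09, with a median of -0.19 (limma; 2 higher and 3 lower at an unadjusted p under 0.05; voom called 2 rises and 5 falls, and 1 and 5 with TMM scaling). Over all tested genes 6.97% rose and 7.55% fell by limma, 12.6% and 4.04% by voom, and 8.37% and 10.2% with TMM scaling. Without a library, Npy was called in 6 of 6 fits and Ucn3 in 2. Of 4 tested genes reported as granin partners or peptide receptors, the IP3 receptor genes Itpr3, at 10.97 ± 0.693 FPKM in Bcas2 cKO and 15.3 ± 2.25 FPKM in control (limma adjusted p 0.047), and Itpr2, at 0.869 ± 0.109 FPKM in Bcas2 cKO and 1.94 ± 0.488 FPKM in control (0.037), fell. Their calls were lost in 5 and 6 of the 6 fits without 1 library. C3ar1, the receptor of a VGF peptide, was under 1 FPKM in both groups and was not tested.

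**Figure D5:**
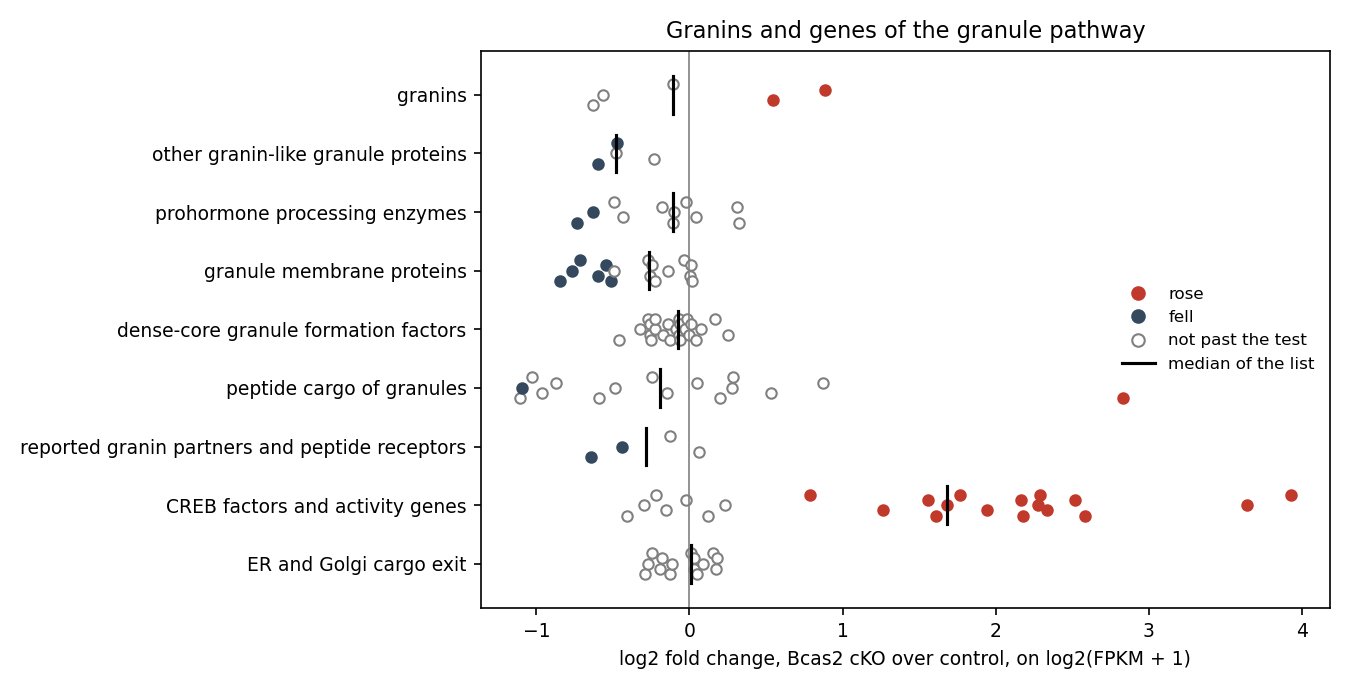
Log2 fold change on log2(FPKM + 1) (x axis, Bcas2 cKO over control) of the tested genes of each list (granins at the top); red circles rose, dark blue circles fell, open circles did not pass the test, and black bars are list medians. Among granins 2 circles are red and 3 open, whereas all called genes of the granule membrane list are on the left; under quantile normalization the Chgb circle would lie left of 0.

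Vgf and Scg2 are known in neurons as genes induced by activity through CREB, and many of the listed activity genes rose in these libraries. Of 23 tested genes in a list of CREB factors and activity genes 16 rose and 0 fell, where 6.97% of all tested genes rose and 7.55% fell (limma; 17 higher and 1 lower at an unadjusted p under 0.05; voom called 17 and 0, and 16 and 1 with TMM scaling), with a median of 1.69. Rises and falls made up 12.6% and 4.04% of all tested genes by voom, and 8.37% and 10.2% with TMM scaling. The list was chosen with earlier results of these data known, so its counts are a description and not a test. The largest log2 rises were 3.93 for Arc, 3.64 for Nptx2, 2.58 for Nr4a1 and 2.52 for Npas4. Fits without a library gave 9 to 15 rises, and of these 4 genes Npas4 was called in 2 of the 6 fits and the others in all. Creb1 itself, named for its role, averaged 4.33 ± 0.366 FPKM in Bcas2 cKO and 5.22 ± 0.657 FPKM in control and did not pass the test (-0.22, limma adjusted p 0.21). Among the CREB and CRTC genes of the list only Crem was called (log2 fold change 0.79, limma adjusted p 0.049). Its call held in 1 of the 6 fits without a library. Vgf rose with the activity genes, while Scg2 was lower and did not pass the test. Whether CREB or cell activity acts on the granins was not tested.

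Other granin-making cells could carry part of these values. The marker counts below stand beside 6.97% of all tested genes that rose and 7.55% that fell by limma. By voom 12.6% rose and 4.04% fell, and with TMM scaling 8.37% rose and 10.2% fell. Of 7 tested alpha cell markers 3 rose, Gria3 (0.63), Irx1 (0.51) and Irx2 (0.37), and 0 fell (limma; 4 higher and 0 lower at an unadjusted p under 0.05; voom called 4 and 0, and 3 and 0 with TMM scaling); without a library 0 to 2 were called. Their summed level was 20736 to 26410 FPKM in Bcas2 cKO and 17804 to 20512 FPKM in control, nearly all of it Gcg, which did not pass the test (limma adjusted p 0.63). Of 8 delta and PP cell markers Sstr3 fell by 0.69 and 0 rose (limma; 2 higher and 1 lower at an unadjusted p under 0.05; voom called 2 rises and 1 fall, and 1 and 1 with TMM scaling), with sums of 12688 to 15813 FPKM in Bcas2 cKO and 11752 to 16405 FPKM in control. Of 11 beta cell markers 3 fell, Ucn3, Slc2a2 and Slc30a8, and 0 rose (limma; 1 higher and 4 lower at an unadjusted p under 0.05; voom called 1 rise and 6 falls, also with TMM scaling). These 3 are not separate from the lists above, where Slc2a2 and Slc30a8 were counted with the granule membrane and Ucn3 with the peptides. Beta cell markers, mostly Ins1 and Ins2, summed to 108946 to 128817 FPKM in Bcas2 cKO and 166173 to 265582 FPKM in control. Markers of Schwann cells, neurons and chromaffin cells summed to 37.1 to 62.5 FPKM in Bcas2 cKO and 49.6 to 58.6 FPKM in control. The chromaffin genes Dbh, at 0.014 FPKM in Bcas2 cKO and 0.156 FPKM in control, and Pnmt, at 0 FPKM in Bcas2 cKO and 0.020 FPKM in control, were at or near 0. Markers of acinar cells, which are not a main source of granins, summed to 11656 to 36313 FPKM in Bcas2 cKO and 3914 to 9354 FPKM in control. Of 15 of them 6 rose and 0 fell (limma; 14 higher and 0 lower at an unadjusted p under 0.05; voom called 14 and 0, also with TMM scaling), and fits without a library called 0 to 12 rises. Of 8 macrophage markers 5 rose, with sums of 112 to 139 FPKM in Bcas2 cKO and 89.4 to 109 FPKM in control. With the hormone genes and acinar markers left out of the library total, the log2 fold changes were 0.93 for Vgf (limma adjusted p 0.026), 0.57 for Chgb (0.036), -0.60 for Scg2 (0.068), -0.54 for Chga (0.20) and -0.08 for Scg3 (0.65). The part that shares of alpha and other endocrine cells have in the granin values was not tested.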

How the data were processed

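Islet RNA was isolated with Trizol and sequenced after SMARTER library preparation, per the labels' protocols. The authors deposited 1 table of FPKM per gene and library with gene lengths in bases (another kind of value, given by the file headers), on build GRCm38 (mm10) per the submitters' processing notes. Aligner, counter, strand setting and scaling between libraries: not given in the sources used here. In each library 1 read had a fixed worth in FPKM times length, and 100% of values above 0 gave whole reads (within 0.01), so reads were recovered. The authors' scaling depth was 1.02 to 1.11 times those totals in Bcas2 cKO and 0.890 to 1.02 times in control, which lowers FPKM in Bcas2 cKO relative to control for every gene, compared with scaling by the totals. Recovered reads served for depth, read numbers with their counting error, shares and voom.

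Genes averaging 1 FPKM or more were fitted on log2(FPKM + 1) with limma 3.58.1 (eBayes with trend, R 4.3.3) and adjusted with Benjamini-Hochberg over all genes tested, with no covariate. The added 1 FPKM shrinks fold changes of weakly expressed genes. Ratios, shares and single genes had 2-sided exact permutation tests. The fit was tested on simulated data. The members, gene lists, tests and alternatives were chosen with earlier results of these data known. Genes named from a list were up to 4 called genes of the largest change, or the 2 of highest mean where none was called; for likeness, the 3 of highest r, of which 1 is not reported here. Pcsk1, Creb1, Crem, C3ar1, Dbh and Pnmt were named outside that rule for their roles, after their values were seen. Lists had no set test. Intervals from reads cover counting error only. Other computing used Python 3.11.15, pandas 2.3.3, scipy 1.17.1 and matplotlib 3.10.9.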

Additional observations from a re-analysis of the deposited data

How the results depend on the processing

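With all genes of mean above 0 in the fit, no member was called (Vgf 0.89, adjusted p 0.081; Chgb 0.54, 0.22; 0 rises by limma, where 2 were reported), and 9 listed genes outside the granins rose and 6 fell (628 and 516 of 32845 genes in all), against 17 and 13 as reported (957 and 1036 of 13723). Of those 17 rises 16 are in the list of CREB factors and activity genes. Quantile normalization called 1 rise (Vgf) and 2 falls, Scg2 (-0.96) and Scg3 (-0.56), and turned Chgb to -0.13. Over all 13723 genes it called 984 rises and 1085 falls. Scg2 at -0.63 was called over genes of at least 5 FPKM and without trend, 1 fall each, where 896 of 7529 and 920 of 13723 genes fell. Voom on recovered totals called Scg2 (-0.49), 1 fall, where 555 of 13723 genes fell, and turned Scg3 to 0.039. With TMM scaling voom called Scg2 (-0.64) and Chga (-0.57), 2 falls, and 26 falls of listed genes outside the granins. Library weights gave 20 falls of listed genes. Falls over all tested genes were also more, 1397 with TMM scaling and 1351 with library weights, against 1036 as reported. The cause was not tested. Pseudocount 0.1, both rescalings and robust estimation changed no granin call. Median-of-ratios scaling did not either, but it hardly moved the fold changes (Vgf 0.8867 as reported and 0.8864), so it is no separate check.

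Leaving out a library gave 0 to 1 granin rises, 0 falls, 10 to 16 listed-gene rises and 6 to 13 falls. Over all tested genes these fits called 466 to 956 rises and 391 to 994 falls, against 957 and 1036 as reported. The ranges were -0.71 to -0.41 for Chga, 0.45 to 0.64 for Chgb, -0.71 to -0.50 for Scg2, -0.13 to -0.05 for Scg3 and 0.76 to 1.08 for Vgf. Listed-gene falls were 6 to 8 without any 1 of the Bcas2 cKO libraries and 7 without control library 4. Falls over all tested genes were 391, 445 and 437 without Bcas2 cKO libraries 3, 4 and 5, and 422 without control library 4. Listed-gene rises were 10 to 11 without a Bcas2 cKO library, where all tested genes gave 487, 476 and 491 rises. The listed-gene counts thus dropped along with those of the whole table. The log2 Chga/Scg2 difference ranged from -0.16 to 0.21, and was -0.16, -0.02 and -0.01 without Bcas2 cKO library 3, control library 3 and control library 4. The other 9 ratios kept their direction.

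The numbers 3 and 4 are shared by columns of both groups, but no label says that they mark a shared animal or batch, and the deviations from the group means correlated at -0.15 for number 3 and 0.05 for number 4 (Pearson's r across 13723 genes, which are not independent replicates). With a replicate block on them, 1 residual degree of freedom is left: Chgb was 0.46 (adjusted p 0.34), Vgf 0.91 (0.042, the 1 rise), Scg2 -0.70, Chga -0.37 and Scg3 -0.13, and 10 listed genes rose and 0 fell. Over all 13723 genes 352 rose and 186 fell with the block.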
